A study of Saccharomyces cerevisiae with 6 samples.

Results

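Cryptic unstable transcripts (CUTs) are short noncoding RNAs made by RNA polymerase II (RNAPII) and degraded soon after they are made. The RNA-seq table analysed here has 18646 transcriptional units, of which 925 are annotated as CUTs. The 122 CUTs described were chosen by their reads, as those with 30 or more reads summed over the 6 samples. The choice used the sum over both genotypes and not the difference between them, so levels are given as a description and the comparison of genotypes is tested. Near the minimum, though, a CUT could reach 30 reads mostly through a single genotype. CUT702 had 9 reads in WT and 37 in Δset2, and CUT171 had 9 and 38, which limits what their differences show. A further 229 CUTs had between 1 and 29 reads, and 574 had 0. Just outside the minimum, CUT097, CUT441, and CUT465 had 29 reads each, and just inside it CUT104 and CUT749 had 30 and CUT017 had 31.

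In budding yeast, CUTs often start from the same nucleosome-depleted region as an mRNA, on the opposite strand, because RNAPII initiates in both directions there. Nrd1 and Nab3 bind short motifs in the nascent RNA and, with the helicase Sen1, end transcription early. The TRAMP complex then adds a short A tail, and the nuclear exosome with Rrp6 removes the RNA, so that CUTs are scarce in cells with an intact exosome. Set2 is the methyltransferase for lysine 36 of histone H3 and travels with elongating RNAPII, and loss of this mark is known to allow initiation inside genes.

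The comparison asked how RNA levels differ in cells that lack Set2. Both groups were W303, a laboratory strain of budding yeast, grown in rich medium (YPDA) to an optical density of 0.6, and the 3 samples of each came from separate colonies. The knockout (Δset2) carried a set2::His3 disruption according to the sample labels, whereas the methods of the study name a KanMX cassette, and both groups had an intact exosome, with no decay mutant in the series. Libraries, each from 200 ng of RNA without rRNA, were sequenced in 1 pool, with 76-nt single reads that were counted without regard to strand. The counts summed to between 10568372 and 15015735 per sample in WT and between 5135226 and 22536840 in Δset2. The deleted gene, SET2, gave 435, 298, and 459 reads in WT and 20, 9, and 32 in Δset2, a log2 fold change of -4.27 ± 0.19 (SE, adjusted P = 1.0e-06 in edgeR's quasi-likelihood test). Each edgeR P value is adjusted by the Benjamini-Hochberg method over all units tested. Among the mating type markers, STE2, MFA1, MFA2, BAR1, and STE6 of a cells were expressed in both groups, and the α-cell genes MF(ALPHA)1 and MF(ALPHA)2 were at or near 0. STE3, also an α-cell gene, was low in both groups and lower in Δset2, with 1.34 against 0.243 CPM (log2 fold change -2.44, edgeR adjusted P = 0.0069), and its part in the results below was not tested.

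The sequence that could give reads to a CUT was often short. The 122 CUTs had a median annotated length of 377 nt (113 to 1561), but reads were assigned only to bases that no other unit covers on either strand, and the median of these "own" bases was 268 (44 to 934). Of the 574 CUTs with 0 reads, 463 had no own base and 561 had fewer own bases than the 76 nt of a read. In 21 of the 122 CUTs all bases were own bases, in 33 all but 1 were, and 1 CUT had fewer than 76. The first own bases, up to 150, are shown for 8 CUTs on which the results turn: the CUT that passed the test in 1 of the fits and its neighbour, the most abundant CUT, a pair lying in introns, and CUTs with a small P value in either direction. They come from RefSeq's R64 genome, whose chromosomes and coordinates are those of sacCer3, and are written 5′ to 3′ on the annotated strand, and capitals mark GTAA or GTAG (letters bound by Nrd1) and TCTT or CTTG (letters bound by Nab3).
CUT702 (chrXI:38661-38810, minus strand): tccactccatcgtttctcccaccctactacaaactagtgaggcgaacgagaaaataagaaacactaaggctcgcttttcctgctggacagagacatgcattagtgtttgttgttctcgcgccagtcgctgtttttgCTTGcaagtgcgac
CUT226 (chrXI:38960-39109, plus strand): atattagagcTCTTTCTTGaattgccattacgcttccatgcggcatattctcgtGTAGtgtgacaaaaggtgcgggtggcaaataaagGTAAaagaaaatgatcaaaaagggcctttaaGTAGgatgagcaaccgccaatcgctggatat
CUT015 (chrII:326297-326446, plus strand): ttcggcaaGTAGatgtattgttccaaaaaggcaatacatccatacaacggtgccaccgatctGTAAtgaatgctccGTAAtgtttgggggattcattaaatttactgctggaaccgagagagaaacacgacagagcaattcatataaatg
CUT033 (chrII:662893-662994, plus strand): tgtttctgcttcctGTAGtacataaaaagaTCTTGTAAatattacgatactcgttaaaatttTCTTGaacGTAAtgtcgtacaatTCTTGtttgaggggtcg
CUT568 (chrV:432708-432857, minus strand): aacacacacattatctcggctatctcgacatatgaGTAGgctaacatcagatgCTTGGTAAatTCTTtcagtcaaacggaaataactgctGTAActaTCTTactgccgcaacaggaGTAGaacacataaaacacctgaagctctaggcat
CUT499 (chrIV:578426-578541, minus strand): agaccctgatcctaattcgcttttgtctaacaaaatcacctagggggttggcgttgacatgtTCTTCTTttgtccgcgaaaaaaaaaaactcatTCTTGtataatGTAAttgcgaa
CUT585 (chrVII:56041-56190, minus strand): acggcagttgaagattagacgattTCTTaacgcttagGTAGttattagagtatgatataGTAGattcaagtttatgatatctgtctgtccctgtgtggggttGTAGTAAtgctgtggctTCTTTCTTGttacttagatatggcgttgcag
CUT572 (chrV:567437-567586, minus strand): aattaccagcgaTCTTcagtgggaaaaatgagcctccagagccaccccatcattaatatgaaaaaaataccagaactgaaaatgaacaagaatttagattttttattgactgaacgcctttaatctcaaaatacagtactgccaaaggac
CUT015, CUT033, CUT226, CUT568, and CUT585 had between 3 and 4 Nrd1 matches in the stretch shown. CUT702 and CUT572 had 0 there, with 1 Nab3 match each. The stretch shown begins 445 nt from the annotated start in CUT499 and 10 nt from it in CUT702. A match is a description of the letters only.

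Over the first 200 nt of each unit at least that long, read on the annotated strand, the letters of both proteins were common in all classes. A Nrd1 match was found in 84.5% of 103 CUT members, 86.6% of the 657 other CUTs, 79.7% of 797 stable unannotated transcripts (SUTs, longer-lived noncoding RNAs), and 70.2% of 6491 protein-coding units. A Nab3 match was found in 93.2%, 94.7%, 81.2%, and 76.0%, and both in 77.7%, 81.9%, 63.9%, and 52.1%. On the other strand of the same windows, Nrd1 matches averaged 1.60 per CUT member against 2.06 on the annotated strand, and Nab3 matches 1.93 against 3.45. The CUT members had a mean GC content of 36.2%, and the protein-coding windows 39.1%. The CUTs with 30 or more reads had about the same share of windows with these letters as the other CUTs.

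CUT RNA was a very small part of each library. The members took 0.0160%, 0.0199%, and 0.0166% of the counts in WT samples 1, 2, and 3, and 0.0188%, 0.0174%, and 0.0180% in Δset2. Summed over members, the normalized level was 153, 206, and 164 CPM (TMM-normalized counts scaled to a common library size) in WT and 190, 178, and 178 in Δset2. The means were 175 ± 28.0 (SD, n = 3) and 182 ± 7.08 (SD, n = 3), and the groups overlapped because WT 2 was the highest of the 6. A single RNA, CUT015, held 21.5% of the 13194 reads on members, and the 10 with the most reads held 43.2%. Without CUT015 the sums were 132 ± 17.5 in WT and 146 ± 4.49 in Δset2 (SD, n = 3), and they still overlapped, with 152 in WT 2 and 141 in Δset2 2. Fewer cells with an RNA and less RNA per cell cannot be told apart in these bulk samples.

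**Figure D1:**
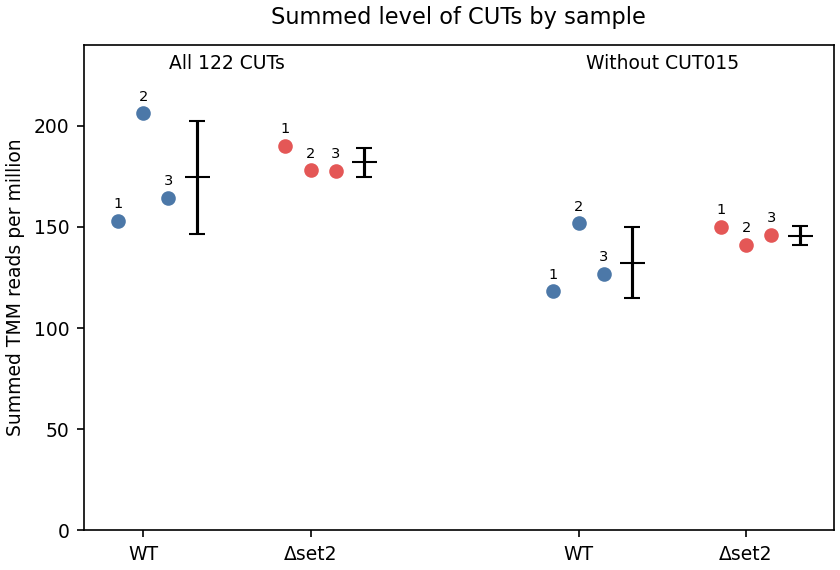
Summed level of the CUTs in each sample, in TMM-normalized CPM, with and without CUT015. Numbered points are samples 1 to 3 and the black bars the mean ± SD of 3; WT 2, at 206, lies above all 3 Δset2 samples (178 to 190), and WT 1 (153) and WT 3 (164) lie below them.

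Levels of single members, as the mean CPM over all samples per kilobase of own bases, ran from 0.580 to 81.7 with a median of 3.07. The same measure had a median of 3.70 in the 118 SUTs and 21.9 in the 5266 protein-coding units that also had 30 or more reads. The most abundant CUT was CUT015 at 81.7. It lies on chromosome II (326297 to 326777, plus strand), all of its 481 nt are own bases, and its start is 148 nt from the start of TCM62, which encodes a mitochondrial protein needed to assemble succinate dehydrogenase. A tRNA gene, tV(UAC)B, lies 14 nt away and had 0 reads. CUT033 followed at 52.9 per kilobase and CUT499 at 36.0. The other 7 of the 10 highest were CUT551 (30.03), CUT568 (21.0), CUT860 (20.3), CUT046 (19.6), CUT047 (18.3), CUT226 (16.4), and CUT450 (14.6).

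Tested over the whole table, the CUTs showed 0 calls in Δset2. After the filter on low counts (filterByExpr), 5317 units were tested with edgeR, and 190 (3.57%) were called, which here means an adjusted P under 0.05 together with a change of more than 1.5-fold. This filter kept 48 CUTs, of which 0 passed. At an unadjusted P value below 0.05 there were 6 CUTs (12.5%), 4 higher and 2 lower, where the share of all tested units was 23.6%. DESeq2, which adjusted the P value of 119 CUTs, also called 0 of them and called 3.39% of all units. Its unadjusted P value was below 0.05 for 6 of all 122 CUTs (4.92%), and for 16.1% of the 6639 units it tested, which had no filter on low counts. The log2 fold changes of the 48 CUTs lay between -1.17 and 1.01 with a median of 0.11, against a median of -0.0040 over all tested units, and their median standard error was 0.31, against 0.13 for all units.

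The filter left out 74 members with few reads, so all 5604 units with 30 or more reads were also tested together, which includes all 122 CUTs. Of these units 193 (3.44%) were called, and among the CUTs only CUT702 was. At an unadjusted P value below 0.05 there were 14 CUTs (11.5%), 12 higher and 2 lower, where the share of all units was 23.0%. The median log2 fold change of the 122 CUTs was 0.19, with 79 (64.8%) above 0, compared with 49.3% of all units. All 3 Δset2 samples lay above all 3 WT samples in 17 CUTs (13.9%), against 14.0% of all units, and below them in 6 CUTs (4.92%), against 13.4%. So the count of CUTs with separated groups was near the background on the higher side and under it on the lower side. For 1 CUT alone, exact permutation of 3 against 3 samples cannot go below P = 0.1.

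Results for CUTs moved with WT 2. This sample was the highest of the WT samples in 62 of the 122 CUTs (50.8%), and in 40.1% of all units with 30 or more reads. Without WT 2, 5 CUTs were called, in a fit that called 6.94% of all units: CUT702, CUT089, CUT568, and CUT094 were higher in Δset2, with log2 fold changes between 0.79 and 2.09, and CUT499 was lower (-0.95). The median of the tested CUTs was then 0.29. Leaving out Δset2 2, the smallest library, gave 1 call, CUT702, where 4.07% of all units were called. Leaving out WT 1, WT 3, Δset2 1, or Δset2 3 gave 0, in fits that called 2.26%, 1.68%, and 1.84% of all units and, without Δset2 3, 80 of 5349. What sets WT 2 apart was not tested.

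Other units with few reads also had medians above 0. The 118 SUTs had a median log2 fold change of 0.15, with 61.9% above 0 and 4 called (3.39%). Among protein-coding units with 30 to 49 reads the median was 0.10 (n = 98), and with 50 to 99 reads 0.05 (n = 155). The CUTs had 0.24 (n = 49) and 0.20 (n = 47) in the same bands. With 100 or more reads the 26 CUTs had a median of 0.11, and 3436 protein-coding units with 100 to under 5000 reads one of 0.01. These medians are descriptions and were not tested against each other.

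**Figure D2:**
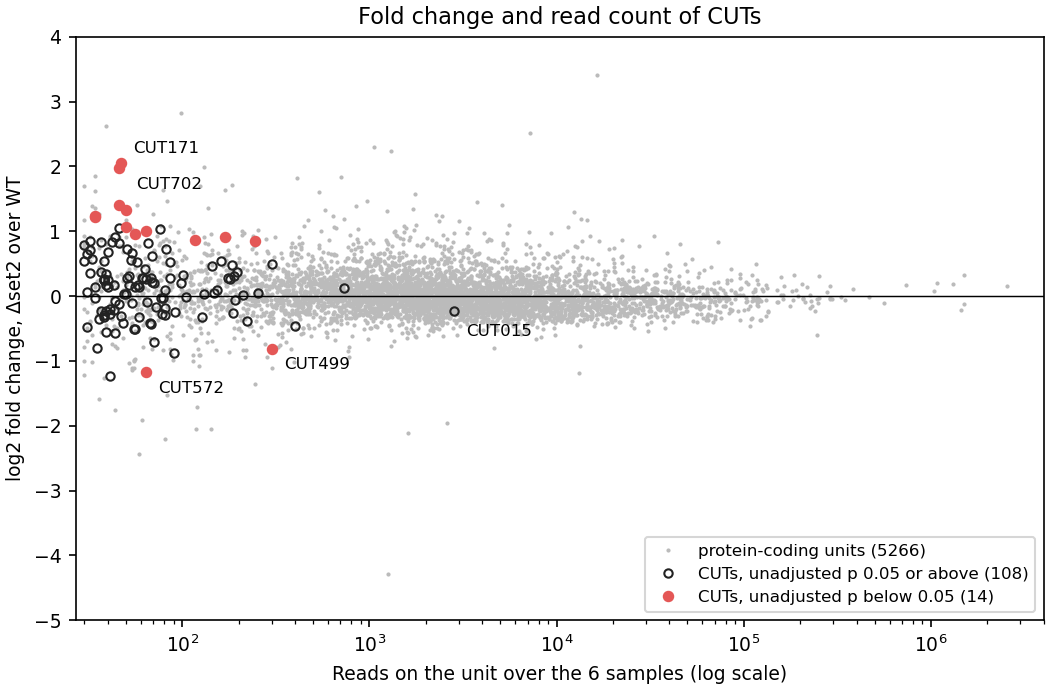
Log2 fold change (Δset2 over WT) of each unit with 30 or more reads against its reads over the 6 samples, on a log axis. Grey dots are 5266 protein-coding units and circles the 122 CUTs, filled for the 14 with an unadjusted P value below 0.05 (12 above 0 and 2 below); most CUTs lie at the left edge, where the grey dots spread widely as well.

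CUT702 had the smallest P value of all CUTs when every member was tested. It lies on the minus strand of chromosome XI (38236 to 38820) between TRP3, an enzyme of tryptophan synthesis, and UBA1, the ubiquitin-activating enzyme, and its end meets the start of TRP3 in 1 shared base. Its reads numbered 2, 3, and 4 in WT and 12, 3, and 22 in Δset2, or 0.171, 0.295, and 0.263 CPM against 1.24, 0.598, and 0.963. Every Δset2 sample was above every WT sample, although the total was 9 reads in WT and 37 in Δset2. CUT702 therefore reached the read minimum for members through its Δset2 reads. The log2 fold change was 1.97 ± 0.46 (SE, edgeR adjusted P = 0.034). The call was lost with DESeq2 (adjusted P = 0.11), and in edgeR without WT 1, WT 3, Δset2 1, or Δset2 3 (adjusted P between 0.12 and 0.15), while the log2 fold change stayed between 1.79 and 2.09.

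Other units at this site did not pass the test. CUT226 lies on the plus strand of the same gap (38960 to 39120) and ends at the start of UBA1. It had 1.79, 2.46, and 2.11 CPM in WT and 3.20, 3.79, and 2.45 in Δset2, so that the lowest Δset2 sample and the highest WT sample were level. Its log2 fold change was 0.48 ± 0.25 (SE, edgeR adjusted P = 0.28). Between both CUTs lies SNR64, a box C/D snoRNA that guides methylation of rRNA, which overlaps CUT702 by 10 nt. SNR64 had 28.4, 114, and 75.3 CPM in WT and 106, 54.2, and 70.9 in Δset2, with overlapping groups and a log2 fold change of 0.10 (edgeR adjusted P = 0.92). TRP3 had a log2 fold change of -0.15 and UBA1 of -0.12, with adjusted P values of 0.34 and 0.58 from edgeR. Per kilobase of own bases, CUT702 stood at 1.30% of the level of TRP3. Because counting ignored strand, reads from either strand of the own bases of CUT702 fall under its name.

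**Figure D3:**
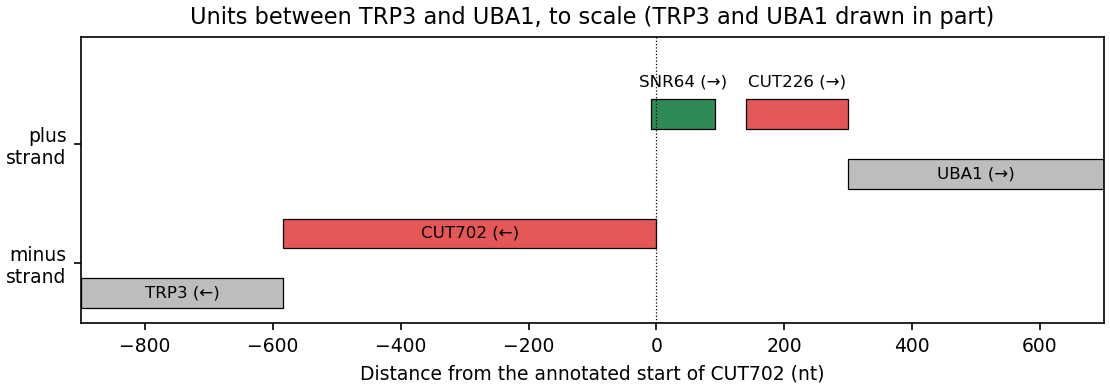
Annotated units between TRP3 and UBA1, to scale, by distance in nt from the start of CUT702 (arrows give the strand). CUT702 runs 584 nt to the left and meets TRP3, and SNR64 and CUT226 lie to the right, with CUT226 meeting UBA1 at 300 nt.

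The CUTs with the next smallest P values included 3 that share a gene's divergent promoter and were higher in every Δset2 sample. CUT585 lies upstream of ADE57, which encodes an enzyme of purine synthesis, and ends at the start of MTO1, which serves tRNA modification in mitochondria. It had 1.88, 1.47, and 1.45 CPM in WT and 2.37, 4.38, and 2.84 in Δset2, with no overlap (log2 fold change 0.91 ± 0.28 SE, edgeR adjusted P = 0.084). CUT795, between LEM3 and FIG4, had 0.939, 1.180, and 1.12 CPM in WT and 2.06, 1.196, and 2.23 in Δset2, and its log2 fold change was 0.88 (edgeR adjusted P = 0.11). The lowest Δset2 sample exceeded the highest WT sample by little. CUT059, between ERP3 and the replication kinase gene CDC7, had 0.598, 0.590, and 0.724 CPM in WT and 1.65, 0.996, and 0.919 in Δset2 (log2 fold change 0.82, edgeR adjusted P = 0.23). Their divergent partners had log2 fold changes of 0.03 (ADE57), -0.04 (LEM3), and -0.05 (ERP3). The same-strand genes at whose starts these CUTs end had -0.10 (MTO1), 0.21 (FIG4), and 0.22 (CDC7). CUT341, upstream of the mannosyltransferase gene KTR5, had overlapping groups and a log2 fold change of 0.73 (edgeR adjusted P = 0.28). The CUTs that the filter left out included CUT171, CUT090, CUT321, CUT834, and CUT632, which is not a full list. In the edgeR fit of all members these were higher in Δset2, with unadjusted P values from 0.0074 to 0.046. Their adjusted P values in that edgeR fit ran from 0.082 to 0.21. Each had between 46 and 56 reads, most of them in Δset2. CUT090, for example, had 5, 2, and 5 reads in WT and 8, 2, and 24 in Δset2. They thus reached the read minimum largely through Δset2, which limits what these P values show.

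Another pair of CUTs with small P values, without a divergent partner, also end at the start of a gene on the same strand. CUT509 ends at the start of ENT5, a clathrin adaptor gene, and had 0.512, 0.590, and 0.592 CPM in WT and 1.03, 1.40, and 1.14 in Δset2. All 3 Δset2 samples were higher, with a log2 fold change of 1.01 ± 0.34 (SE, edgeR adjusted P = 0.11), and ENT5 itself had -0.01. CUT089 ends at the start of EFT2, 1 of the near-identical gene copies for translation elongation factor 2, whose reads can be assigned only in part. It had 1.88, 3.83, and 1.51 CPM in WT and 4.95, 2.79, and 4.29 in Δset2, so that WT 2 lay within the Δset2 range. Its log2 fold change was 0.85 (edgeR adjusted P = 0.16) with all samples and 1.32 (edgeR adjusted P = 0.012) without WT 2.

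Lower values in Δset2 were found for 2 CUTs at an unadjusted P value below 0.05. CUT499 had 5.81, 4.13, and 5.53 CPM in WT and 3.10, 3.99, and 2.49 in Δset2, without overlap, and a log2 fold change of -0.80 ± 0.23 (SE, edgeR adjusted P = 0.066, and 0.019 without WT 2). It runs away from RPS13, a ribosomal protein gene, and opposite to AIM7, so that only 116 of its 561 nt are own bases. AIM7, which takes up the rest, had a log2 fold change of -0.80 as well (edgeR adjusted P = 0.24), and RPS13 had 0.08. The own bases of CUT499 lie 445 nt from its start, just before the start of AIM7 and 59 nt from LCB2. Without strand, RNA of these genes beyond their annotated limits and CUT499 cannot be told apart. CUT572 had 1.11, 1.57, and 0.987 CPM in WT and 0.619, 0.199, and 0.569 in Δset2, again without overlap. Its log2 fold change was -1.17 ± 0.40 (SE, edgeR adjusted P = 0.11), on 64 reads in all. All of its 545 nt are own bases, and its neighbours YER188W and YER187W had log2 fold changes of -0.10 and -0.20.

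**Figure D4:**
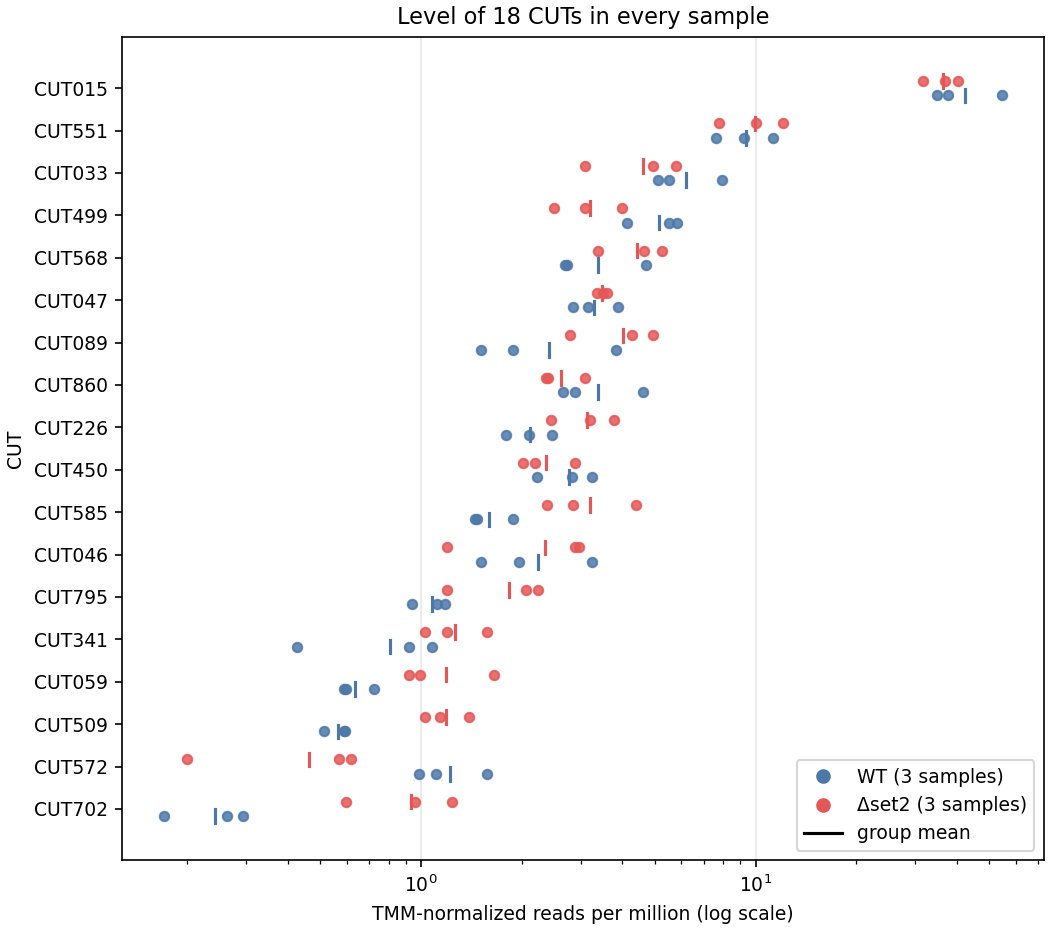
Level of 18 CUTs in every sample, in TMM-normalized CPM on a log axis. They are the 10 with the highest level per own kilobase, the 10 with the smallest P value among the 48 that passed the filter on low counts, and CUT702 (3 fall under more than 1 of these). Points are samples and ticks the group means; Δset2 lies wholly to the right for CUT702, CUT509, CUT059, CUT585, and CUT795, and wholly to the left for CUT572 and CUT499.

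Apart from CUT499, the groups overlapped for each of the 10 most abundant CUTs. CUT015 had 34.9, 54.5, and 37.7 CPM in WT and 40.1, 36.9, and 31.6 in Δset2, a log2 fold change of -0.23 ± 0.17 (SE, edgeR adjusted P = 0.45). WT 2 was the highest sample, and without CUT015 the SD of the summed WT level was 17.5 and not 28.0. CUT551, which begins where the same-strand gene ARB1 for a ribosome assembly ATPase ends, had 7.60, 11.3, and 9.21 CPM in WT and 12.1, 7.77, and 10.1 in Δset2 (log2 fold change 0.13, edgeR adjusted P = 0.74). EDC2, on the other strand within CUT551, had no own base and 0 reads, and 322 of the 761 nt of CUT551 were own bases. The log2 fold changes of the others were 0.05 for CUT047, -0.38 for CUT860, 0.26 for CUT046, and -0.25 for CUT450, with adjusted P values from 0.425 to 0.95 (edgeR).

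By position, most members were divergent to a gene. A CUT was called divergent where its start lies within 500 nt of the start of a protein-coding unit on the other strand, and this held for 74 of the 122. Each CUT was put in 1 arrangement, the first that applied. First came the 5 with own bases in an intron, 4 of which also meet the divergent rule, and then the other 70 divergent CUTs. All 5 intron CUTs and 32 of these 70 also overlap a gene on the other strand. Of the 70, 25 touch a gene on their own strand, and 10 start downstream of the start of the opposite gene. Next came 12 further CUTs, classed as antisense, which overlap a gene on the other strand (6 of them also touch a gene on their own strand). Then came 22 that touch a gene only on the same strand, by 1 nt. Of those apart from any gene, 2 lay in tandem, 7 were convergent with the next gene downstream, and 4 were in another intergenic arrangement. The convergent label did not depend on which gene was nearest, and CUT323 lies 39 nt beyond SSU72 on the same strand. In the fit of all members the median log2 fold changes were 0.19 (divergent), 0.26 (same strand), 0.27 (antisense), -0.21 (convergent), 0.03 (intron), 0.47 (other intergenic), and 0.35 (tandem). The ranges overlapped, from -1.17 to 2.05 among divergent CUTs and from -1.24 to 0.32 among convergent ones. An unadjusted P value below 0.05 was reached by 8 divergent CUTs, 5 of the 22 that touch a gene only on the same strand, and 1 other intergenic CUT. The arrangements were not tested against each other.

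**Figure D5:**
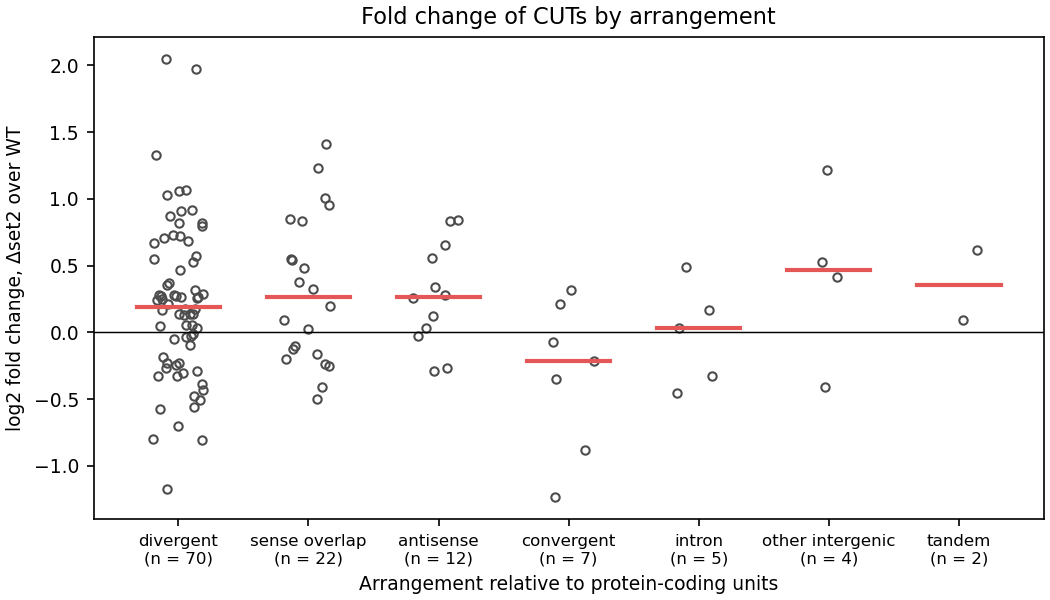
Log2 fold change (Δset2 over WT) of the 122 CUTs by their arrangement relative to protein-coding units. Each circle is a CUT, placed sideways at random, and red bars are medians; all arrangements with more than 4 members reach to both sides of 0, and the convergent CUTs have the lowest median (-0.21, n = 7).

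A pair of the 5 intronic CUTs, CUT033 and CUT568, were among the 10 with the highest level. CUT033 lies on the strand opposite to YBR219C, in whose intron its own bases fall. It had 7.94, 5.11, and 5.53 CPM in WT and 3.10, 5.78, and 4.94 in Δset2 (log2 fold change -0.45 ± 0.25 SE, edgeR adjusted P = 0.30). YBR219C itself had 0 reads, which alone does not show that it is silent, because only own bases take reads. CUT568 lies opposite to GLC7, the catalytic subunit of protein phosphatase 1, with 186 own bases in its intron. It had 2.73, 4.72, and 2.70 CPM in WT and 4.64, 3.39, and 5.25 in Δset2, and WT 2 was again within the Δset2 range (log2 fold change 0.49, edgeR adjusted P = 0.28, and 0.044 without WT 2). GLC7 stood at 163 CPM per own kilobase, against 21.0 for CUT568. Without strand, unspliced GLC7 RNA and CUT568 cannot be told apart.

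The boundaries of many CUTs were those of a gene. In 54 members the annotated end or start shared 1 nt with a protein-coding unit on the same strand, in 40 instances at the start of the gene and in 16 at its end. At gene starts the CUT had a median of 8.44% of the level of the gene, from 0.0998% (CUT171 and RPS20) to 110% (CUT700 and DAN4). RNA of the gene with a start or end beyond the annotated one would be counted under such a CUT, which these counts cannot tell apart. Of the partners of the 74 CUTs that meet the divergent rule, 61 of 66 that were tested had a higher level than their CUT, with medians of 33.8 and 2.78 CPM per own kilobase. In 34 of these 66 pairs CUT and gene had log2 fold changes of the same sign. Across the pairs the Spearman correlation was 0.13 for log2 fold changes and 0.03 for levels, given as a description of pairs that share libraries.

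The protein-coding neighbours of the CUTs were called about as often as other units. There were 345 distinct neighbours, nearest or overlapping, of which 299 were tested and 11 (3.68%) called, 10 higher and 1 lower, beside 3.57% of all units. Their median log2 fold change was -0.01. They included MUS81, a nuclease subunit gene 2919 nt beyond CUT089 on the same strand (log2 fold change 0.60, edgeR adjusted P = 0.026), and DUR3, which is divergent to CUT171. The other 9 were SEF1, BPH1, YGL039W (the one that fell, by 0.59 on the log2 scale), YJL047C-A, ZWF1, LIF1, YNL277W-A, SSU1, and YPR196W. Apart from MUS81 they were named after their values were seen.

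Among these, DUR3 and ZWF1 had a CUT whose Δset2 samples all lay above WT in CPM. The same held for 13.9% of the CUTs and 14.0% of all units with 30 or more reads. DUR3, a transporter of urea and polyamines, rose by a log2 fold change of 1.002 (edgeR adjusted P = 0.0052), and CUT171, which starts inside DUR3 and runs away from it to RPS20, had 3, 0, and 6 reads in WT and 7, 9, and 22 in Δset2. The log2 fold change of CUT171 was 2.05 ± 0.62 (SE, edgeR adjusted P = 0.082). Its own bases lie between the starts of DUR3 and RPS20. Without strand, RNA of these genes beyond their annotated limits and CUT171 cannot be told apart. ZWF1, the first enzyme of the pentose phosphate pathway, rose by 0.78, and CUT321 beside it had 2, 5, and 7 reads in WT and 13, 3, and 20 in Δset2 (log2 fold change 1.33, edgeR adjusted P = 0.12). In CPM these were 0.17, 0.49, and 0.46 in WT and 1.34, 0.60, and 0.88 in Δset2. CUT321, like CUT171, reached the read minimum mostly through its Δset2 reads. SSU1, a sulfite pump gene, rose by 0.99 (edgeR adjusted P = 0.020), whereas CUT895 had a log2 fold change of 0.26 (edgeR adjusted P = 0.80). CUT802 had 0.13 (edgeR adjusted P = 0.93) beside YNL277W-A, which rose by 1.99.

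Genes for small stable RNAs lay within 400 nt of 20 members. They were snoRNA or snRNA genes for 13 and tRNA genes for 8, with CUT748 beside both kinds. The snoRNA and snRNA genes gave up to 510934 reads (SNR19, the U1 snRNA), which is far above the 44 reads of CUT323, 78 nt away. Apart from CUT702, the CUTs of this group had log2 fold changes between -0.88 (CUT136) and 0.83 (CUT916). CUT433 and CUT916 lie on either side of SNR45, with log2 fold changes of 0.53 and 0.83 against -0.15 for SNR45. No tested snoRNA or snRNA gene of this group was called, and their log2 fold changes lay between -0.43 and 0.57.

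The factors that end and degrade CUTs were measured in the same libraries. Of 32 genes on this list (Nrd1-Nab3-Sen1, TRAMP, the exosome, 5′ exonucleases, decapping, and cap-binding proteins), 31 were tested and 0 were called, with a median log2 fold change of -0.10, while the background was 3.57%. NRD1 had 0.16, NAB3 -0.01, SEN1 0.13, RRP6 -0.19, MTR4 -0.30, and PAP2 (the poly(A) polymerase of TRAMP) -0.06. The list ran from -0.82 for MPP6 to 0.43 for AIR2, each with an adjusted P value of 0.13 from edgeR. All Δset2 samples lay below WT for MPP6 and above WT for AIR2. STO1, the large subunit of the nuclear cap-binding complex, was the one with an adjusted P value below 0.05 (0.027 from edgeR) and had a log2 fold change of -0.40, within the 1.5-fold limit. MTR3, an exosome subunit, had 0 reads in all samples and was not tested. Because only own bases take reads, 0 reads alone does not show that a gene is silent. Of 26 genes around the Set2 pathway (the Rpd3S deacetylase, Isw1, histone chaperones, the Ctk and Paf1 complexes, and others), all were tested and 0 were called. Their median was -0.12, and JHD1, a demethylase of the same histone residue, had 0.46 (edgeR adjusted P = 0.032).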

How the data were processed

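The authors mapped the reads to sacCer3 with TopHat2 2.1.0, dropped reads with several positions or a mapping quality under 20, and deposited the count of reads for each unit, made without strand on Ensembl annotation with added noncoding units. The deposited FPKM values were used only to find which units were counted over exons alone. Columns of the authors' own comparison (mean, log2 fold change, standard error, statistic, and P values) were not used, with 0 further columns of single samples. Counts of all units were tested here in R 4.3.3 by edgeR 4.0.16 with limma 3.58.1 (filterByExpr, TMM, glmQLFit, glmQLFTest), adjusted over all tested units, and with DESeq2 1.42.0 as an alternative. The standard error is the size of the log2 fold change over the square root of F. CPM used TMM effective library sizes. The fit was tested on simulated counts. Tables and figures used Python 3.11.15, numpy 2.4.6, pandas 2.3.3, and matplotlib 3.10.9. Within-group deviations of samples with the same number correlated at -0.32, -0.37, and -0.13, so the numbers were not used as pairs.

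Named CUTs were the 10 highest per own kilobase (at least 76 own bases) and the 10 with the smallest P value among those that passed the filter on low counts. Any called CUT and those next to the read minimum were also named, with the neighbours of all these and called genes of the lists. The members, lists, and tests were chosen with earlier results of these data known, and the other settings within the fit of all units with 30 or more reads (DESeq2 size factors, replicate block, samples left out) were added after seeing the data. Total counts ran from 5135226 to 22536840 per sample. P values weigh the difference between genotypes against the spread between samples of a genotype, which came from separate colonies.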

Additional observations from a re-analysis of the deposited data

How the results depend on the processing

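Of 221 values of 17 single CUTs under other settings, 215 kept their direction and their side of the thresholds. Without WT 2, the calls of CUT499 (-0.95), CUT568 (0.79), and CUT089 (1.32) were gained. The 3 that changed sign were near 0: CUT551 without WT 1 (-0.0046) or Δset2 1 (-0.02) and CUT047 without WT 2 (-0.04).

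The count of called CUTs was 0, and became 1 with no filter on low counts and with all units of 30 or more reads, and 0 to 5 with a sample left out. The count at an unadjusted P value below 0.05 was 6, and became 15 with no filter, 14 with all units of 30 or more reads, and 6 to 17 with a sample left out. The median log2 fold change of tested CUTs lay between 0.0092 and 0.29 with a sample left out. All units called numbered 190, and 80 to 373 with a sample left out. Called neighbours numbered 11, and 3 to 15 with a sample left out. With the replicate block, all called units fell to 75, called neighbours to 4, and CUT702 to an adjusted P of 0.15 (edgeR, log2 fold change 1.93), which leaves 0 called CUTs. The numbers did not pair the samples. With DESeq2, CUT702 had 1.98 and was not called. With every member tested and a sample left out, 0 to 5 CUTs were called, CUT702 lay between 1.79 and 2.09, and the median was 0.086 to 0.31. The cause of these changes was not tested. A read minimum of 15 or 100 for members gave 0 calls. The share of counts in Δset2 over WT was 1.03 ± 0.13, and 0.99 to 1.11 with a sample left out. Depth limits single CUTs, with a median of 56 reads over 6 samples.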
